A study of Rattus norvegicus with 6 samples.

Results

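Glucose production, fructose use and ammonia production in the renal cortex were followed through 8 genes: Pck1, G6pc1, Fbp1, Pcx, Khk, Glud1, Slc38a3 and Gpt. They were chosen by name for their enzymatic or transport roles, with earlier results of these data known. The whole data set held 11804 tested genes, and all 8 were measured. RNA of the cortex, the outer kidney that holds the glomeruli and most of the proximal tubule, was hybridised to single-colour Agilent arrays, 1 rat per array. The 3 TCEP rats had received tris(2-chloroethyl)phosphate, a chlorinated organophosphate flame retardant, at 400 mg/kg/day for 4 weeks, and the 3 vehicle rats had received corn oil over the same 4 weeks. The route of dosing is not given in the sources used here. All 6 were male Sprague-Dawley rats, an outbred stock, bought at 5 weeks of age. The comparison asks whether transcripts of these pathways differ after TCEP, at a single dose and a single time.

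The proximal tubule is the part of the kidney that makes glucose. Pyruvate carboxylase and phosphoenolpyruvate carboxykinase turn pyruvate into phosphoenolpyruvate, fructose bisphosphatase removes a phosphate near the end of the path, and glucose-6-phosphatase releases free glucose. The same cells phosphorylate filtered fructose with ketohexokinase, and they take up glutamine and strip its nitrogen as ammonia, which carries acid into the urine, while the carbon skeleton feeds glucose production. In metabolic acidosis this last route is known to be induced in the rat kidney, with Pck1 and Slc38a3 among its classic responders.

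The promoters of the genes for the committed first step (Pck1) and the last step (G6pc1) are shown because hormonal control of glucose production is known to act on them. The sequences are the 250 bases before the annotated start in RefSeq, build GRCr8, both on the plus strand, at chr3:182348322-182348571 for Pck1 and chr10:86807409-86807658 for G6pc1. Capitals mark the core of the cyclic AMP response element (TGACGT, or ACGTCA on the other strand), the nuclear receptor half-site (AGGTCA, or TGACCT on the other strand), and the TATA-type letters TATAAA or TATTTA.
Pck1: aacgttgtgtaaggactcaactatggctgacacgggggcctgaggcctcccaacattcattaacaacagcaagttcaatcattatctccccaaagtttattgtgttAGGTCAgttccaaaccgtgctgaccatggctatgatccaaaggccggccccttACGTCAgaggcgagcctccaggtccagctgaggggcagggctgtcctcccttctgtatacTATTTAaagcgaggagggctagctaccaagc
G6pc1: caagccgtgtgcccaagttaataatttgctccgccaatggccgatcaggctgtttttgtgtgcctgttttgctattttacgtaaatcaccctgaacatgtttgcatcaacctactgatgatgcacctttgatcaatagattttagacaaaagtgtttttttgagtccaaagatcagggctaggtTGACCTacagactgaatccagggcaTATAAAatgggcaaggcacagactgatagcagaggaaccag
The response element core lay at bases -91 to -86 of the Pck1 sequence, counted back from -1 next to the start. Those exact letters were not in the G6pc1 window, nor in those of Fbp1, Khk and Glud1, the other members with a promoter sequence. Variant forms of the element were not searched, so their absence is not shown. The Fbp1 and Khk windows lie inside the annotated spans of their genes. Of 33469 rat promoter windows of the same length, 6.95% held that core and 14.1% held the half-site, which both genes had, at -144 to -139 in Pck1 and at -66 to -61 in G6pc1. TATTTA stood at -31 to -26 in Pck1 (7.0% of all windows) and TATAAA at -41 to -36 in G6pc1 (8.06%), both searched on the gene's strand alone. These are matches of letters and were not measured as bound sites.

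A level below is the log2 ratio of a probe's signal to its array's 75th percentile, so that a level of 1 is 2 times that percentile. Each belongs to 1 probe and cannot be ranked against that of another gene. A difference is the TCEP mean minus the vehicle mean, in log2 units. Between 67.2% and 69.3% of the non-control probes of an array were well above background. All TCEP arrays lay on one slide, with its own scan time, and all vehicle arrays on another, so slide and treatment cannot be told apart in any comparison here. In bulk cortex, fewer cells of a type and less RNA per cell also cannot be told apart. All 10 proximal tubule markers, among them Slc34a1 and Lrp2, were well above background on all 6 arrays, and the list's mean deviation from its own 6-array average ran from -0.23 to 0.11 in TCEP rats and from -0.07 to 0.08 in vehicle rats.

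TCEP replicate 1 stood apart in liver-type transcripts. This matters here because members of the 8, G6pc1, Pck1, Fbp1 and Gpt among them, are also strongly expressed in hepatocytes. Of 8 hepatocyte markers, 6 were well above background on TCEP replicate 1 and between 1 and 3 on each other array, and their summed signal was 4.04 times the array's 75th percentile on TCEP replicate 1, against 0.384 to 0.546 on the other TCEP arrays and 0.536 to 0.760 on the vehicle arrays. Albumin (Alb) was at 0.85 on TCEP replicate 1 and at -6.56 and -6.99 on the other TCEP arrays, against -7.80 to -6.34 on the vehicle arrays. Transthyretin (Ttr) was at 0.30 on that array and at -8.14 to -6.73 on all others. Cps1 and Tat, also typical of hepatocytes, were well above background on 0 of the 6 arrays, TCEP replicate 1 included. The part of this array's liver-type signal in the results below was not tested, and the differences of the 8 genes are given without it as well.

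**Figure D1:**
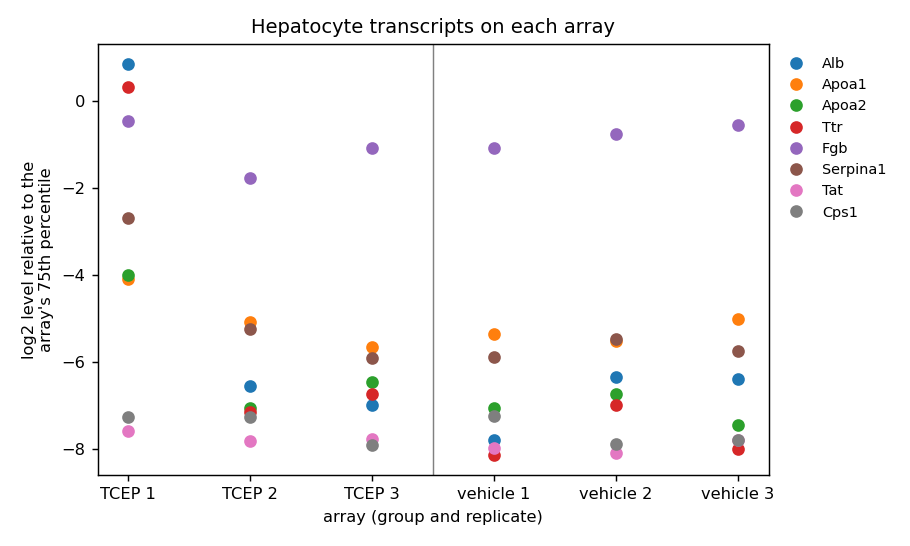
Log2 level relative to the array's 75th percentile (vertical axis) of 8 hepatocyte transcripts on each of the 6 arrays (horizontal axis), 1 point per gene and array. Alb and Ttr stand about 7 log2 units above every other array on TCEP replicate 1, while Cps1 and Tat stay at background level on all arrays.

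Transcripts of glucose production showed no difference past the spread between animals. Pck1, which encodes the cytosolic phosphoenolpyruvate carboxykinase, the rate-setting enzyme of glucose production, was at 7.36, 7.73 and 7.60 in TCEP rats, against 7.76, 7.53 and 7.78 in vehicle rats. TCEP replicate 1 was the lowest of the 6, and the other 2 TCEP values lay inside the vehicle range. The means were 7.56 ± 0.19 in TCEP rats and 7.69 ± 0.14 in vehicle rats (SD, n = 3 each). Their difference was -0.13 (SE 0.12, limma adjusted p = 0.795), or 0.914 times the vehicle level with a 95% confidence interval from 0.742 to 1.13. A further Pck1 probe gave -0.14 with the same order of the 6 arrays. Without TCEP replicate 1 the difference was -0.03.

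G6pc1, the catalytic subunit of glucose-6-phosphatase, was at 6.98, 7.27 and 7.25 in TCEP rats, against 6.98, 7.05 and 7.64 in vehicle rats. Vehicle replicate 3 was the highest, and the TCEP values lay between the vehicle extremes. The difference was -0.05 (SE 0.19, adjusted p = 0.955), with an interval of 0.692 to 1.34 times the vehicle level. It was 0.15 without vehicle replicate 3 and 0.04 without TCEP replicate 1, so its direction rested on single animals. The further G6pc1 probe gave -0.06.

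Fbp1, the fructose bisphosphatase of liver and kidney, was at 8.96, 9.24 and 9.21 in TCEP rats, against 9.22, 9.12 and 9.16 in vehicle rats. The difference was -0.03 (SE 0.09, adjusted p = 0.946) and its interval ran from 0.833 to 1.15 times the vehicle level. TCEP replicate 1 was again the lowest array, and without it the difference was 0.06. Pcx (named Pc in current annotation), the mitochondrial pyruvate carboxylase, was at 7.29, 7.33 and 7.59 in TCEP rats, against 7.56, 7.32 and 7.68 in vehicle rats. The groups overlapped, with a difference of -0.12 (SE 0.13, adjusted p = 0.830) and an interval of 0.743 to 1.15 times the vehicle level. Without TCEP replicate 1 it was -0.061, and without vehicle replicate 3 it was -0.038.

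**Figure D2:**
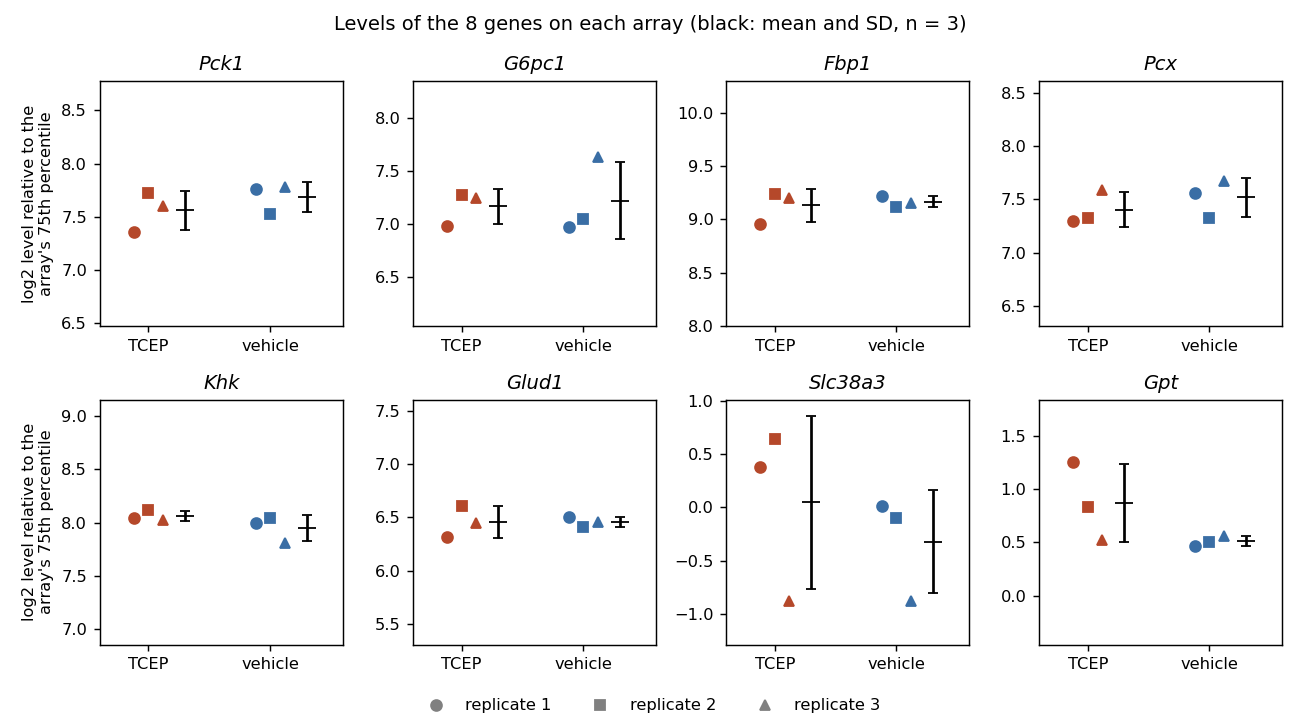
Log2 level relative to the array's 75th percentile (vertical axis, the same span of 2.3 units in every panel) of the 8 genes in TCEP and vehicle rats, 1 symbol per array with the replicate number as its shape, and the mean and SD of each group (n = 3) in black. The groups overlap in every panel, and the spread within groups is widest for Slc38a3.

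Khk, the ketohexokinase that commits fructose to breakdown, was the most even of the 8 within groups. It was at 8.04, 8.12 and 8.03 in TCEP rats, against 8.0, 8.04 and 7.81 in vehicle rats. TCEP replicate 2 lay above all vehicle values, TCEP replicate 1 was level with vehicle replicate 2, and TCEP replicate 3 lay below it. The difference was 0.11 (SE 0.08, adjusted p = 0.75), with an interval of 0.938 to 1.25 times the vehicle level, and a further probe gave 0.14. Without vehicle replicate 3, the lowest array, the difference was 0.04, and without TCEP replicate 1 it was 0.12. Under normexp background correction it was -0.0057.

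Among the genes of ammonia production, Glud1 had nearly equal means in both groups. It encodes the mitochondrial glutamate dehydrogenase, which releases ammonia from glutamate, and was at 6.31, 6.61 and 6.45 in TCEP rats, against 6.50, 6.41 and 6.46 in vehicle rats. The TCEP values spread to both sides of the vehicle values, and the difference was -0.002 (SE 0.09, adjusted p = 0.997; interval 0.854 to 1.17 times the vehicle level). Its 3 probes did not give 1 value: a further probe gave 0.005 and another 0.21 (SE 0.12, adjusted p = 0.681 among all detected probes). Without TCEP replicate 1 the difference of the brightest probe was 0.070. On the probe at 0.21, TCEP replicates 2 and 3 were at 5.16 and 5.17 and TCEP replicate 1 at 4.80, against 4.79 to 4.90 in vehicle rats.

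Slc38a3, the glutamine carrier of the basolateral membrane, varied more between animals than between groups. It was at 0.38, 0.64 and -0.88 in TCEP rats, against 0.01, -0.10 and -0.88 in vehicle rats. Each group held 1 animal near -0.88, and the other 2 TCEP values lay above all vehicle values. The difference of 0.37 had an SE of 0.45 (adjusted p = 0.850), and the interval, from 0.60 to 2.79 times the vehicle level, includes a level 2 times that of vehicle rats. The means were 0.05 ± 0.81 in TCEP rats and -0.32 ± 0.48 in vehicle rats (SD, n = 3 each). The pooled SD within groups, 0.67, was larger than that of 97.3% of all genes tested. The difference was 0.83 without TCEP replicate 3 (unadjusted p = 0.0388, adjusted p = 0.575 with limma), 0.20 without TCEP replicate 1, 0.07 without TCEP replicate 2 and 0.09 without vehicle replicate 3. Slc38a3 has 1 named probe, so its values rest on that probe alone. The arrays where it was lowest, TCEP replicate 3 and vehicle replicate 3, also had low means for the markers of the late proximal tubule (-0.25 and -0.50). Vehicle replicate 1, with a list mean of -0.31, nevertheless had the highest Slc38a3 value of the vehicle rats. The part of that tubule segment in the Slc38a3 values was not tested.

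Gpt, the cytosolic alanine aminotransferase that moves the nitrogen of alanine to glutamate, was at 1.25, 0.83 and 0.52 in TCEP rats, against 0.47, 0.50 and 0.56 in vehicle rats. TCEP replicates 1 and 2 lay above all vehicle values and TCEP replicate 3 inside their range. The SD was 0.37 among TCEP rats and 0.05 among vehicle rats. The difference of 0.36 (SE 0.18) had the smallest unadjusted p of the 8, 0.0983, and an adjusted p of 0.658 with limma. Its interval was 0.939 to 1.75 times the vehicle level. Without TCEP replicate 1, the array with the liver-type transcripts, the difference was 0.17, and a dimmer Gpt probe gave 0.13 (SE 0.23). Without TCEP replicate 3 it was 0.53 (unadjusted p = 0.0133, adjusted p = 0.542). The list mean of fat markers, with 4 of 6 genes tested, was 0.49, 0.11 and -0.30 in TCEP rats. On the vehicle arrays it was -0.17, 0.18 and -0.31. The markers did not move together. Fabp4 was at -1.58, -2.70 and -3.67 in TCEP rats, against -4.20 to -3.82 in vehicle rats. Adipoq stayed between -0.09 and 0.06 in TCEP rats, and Cfd had a lower mean in TCEP rats, a difference of -0.82. The order of Gpt on the TCEP arrays was not particular to fat. The late proximal tubule list had it too, with means of 0.57, 0.13 and -0.25. On the vehicle arrays that list was at -0.31, 0.36 and -0.50, an order unlike that of Gpt. The part of fat or of that tubule segment in the Gpt values was not tested.

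**Figure D3:**
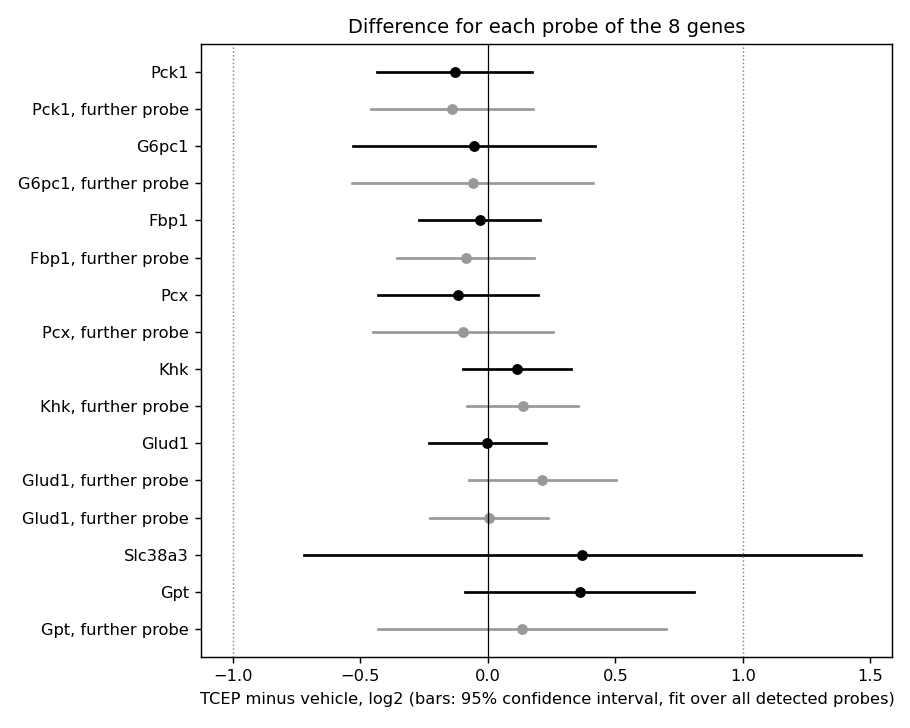
Difference of TCEP minus vehicle on the log2 scale (horizontal axis) with its 95% confidence interval for each of the 16 probes of the 8 genes, from the fit over all detected probes. Black marks the brightest probe of a gene, grey its further probes, and the dotted lines a 2-fold difference. Every interval includes 0, and 1 of them, that of Slc38a3, reaches past a 2-fold difference.

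Over the 8 genes, 3 had higher and 5 lower means in TCEP rats, with a median difference of -0.02, beside 0.01 over all 11804 genes. With limma, 0 of the 8 passed a Benjamini-Hochberg adjusted p of 0.05, as did 0 of all genes (0% called). At an unadjusted p under 0.05 there were 0 of the 8, beside 983 (8.33%) of all genes, and 0 of the 8 had groups of arrays that did not overlap, beside 15.6% of all genes. For 7 of the 8 the 95% confidence interval lay within a 2-fold difference in either direction, and for 6, all but Slc38a3 and Gpt, within a 1.5-fold difference. All 16 probes of the 8 genes were well above background on all 6 arrays, and 0 of the 8 brightest probes were marked as saturated. A p that misses the threshold does not show equal levels, and smaller changes than these intervals cover were not detectable with 3 arrays per group.

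The 8 genes did not move as a block across animals. TCEP replicate 1 was the lowest of the 6 arrays for Pck1, Fbp1, Pcx and Glud1 and the highest for Gpt. TCEP replicate 2 was the highest for Fbp1, Khk, Glud1 and Slc38a3, and 7 of the 8 lay above their own 6-array mean there. Vehicle replicate 3 was the highest for Pck1, G6pc1 and Pcx and the lowest for Khk. Markers of the straight, late part of the proximal tubule differed between the same animals, with a mean deviation of 0.57 on TCEP replicate 1, 0.13 on TCEP replicate 2 and -0.25 on TCEP replicate 3, against -0.31, 0.36 and -0.50 on the vehicle arrays. Within each group Pck1 was lowest on the array in which this list was highest, TCEP replicate 1 and vehicle replicate 2. The order was not inverse throughout, since Pck1 was lower on TCEP replicate 3 than on TCEP replicate 2 although the list was lower there too. Within each group the mean of the general proximal tubule list was lowest on those arrays as well, TCEP replicate 1 and vehicle replicate 2. It was -0.23, 0.06 and 0.11 on the TCEP arrays, against 0.05, -0.07 and 0.08 on the vehicle arrays. Slc7a13, an amino acid carrier of the late part, ran from 6.0 to 7.72 in TCEP rats and from 5.59 to 7.13 in vehicle rats. Slc22a7 ran from -1.09 to 1.19 in TCEP rats and from -2.11 to 0.48 in vehicle rats. Not every marker of the late list followed. Cyp4a2 was lowest of the 6 arrays on TCEP replicate 1, at 8.83, against 8.90 to 9.14 on the others. Slc5a1 stayed between -1.79 and -1.37 on all arrays. The share of each tubule part in the dissected tissue, and its part in the values of the 8 genes, was not tested.

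**Figure D4:**
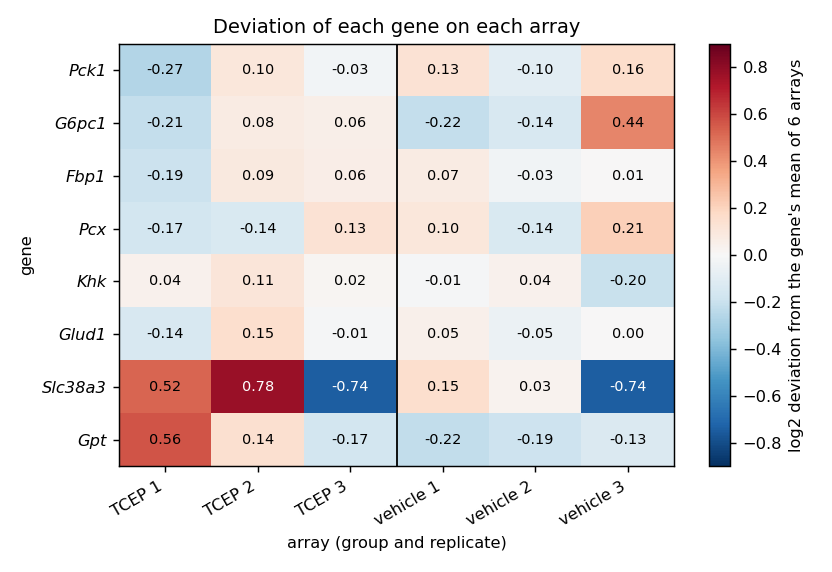
Deviation of each of the 8 genes (rows) on each array (columns) from the gene's own mean over the 6 arrays, on the log2 scale, with the value printed in each cell and the TCEP arrays left of the line. TCEP replicate 1 and vehicle replicate 3 differ in opposite directions for Pck1, G6pc1 and Pcx, and Slc38a3 is at -0.74 in 1 array of each group.

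The 3 genes whose values on the 6 arrays, each centred on its own mean, came nearest to those of Pck1 were Tie1, Creb1 and Lpar1, with root mean square differences of 0.028, 0.031 and 0.032. Over 6 arrays and 11804 genes this is a description of likeness alone.

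Further genes of these pathways gave no call either. Their lists held 99 distinct symbols, of which 94 were tested, and some genes stand in more than 1 list. With limma, 0 of the 94 passed the adjusted threshold, the smallest adjusted p being 0.533, and 7 (7.45%) had an unadjusted p under 0.05, beside 8.33% of all genes. Of these 7, 4 were higher and 3 lower in TCEP rats, and the median of the 94 was 0.02. Of the 94, 12.8% had groups that did not overlap, beside 15.6% of all genes.

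Of 23 tested genes for further steps of glucose production, 12 had higher and 11 lower means (median 0.02), and 2 had an unadjusted p under 0.05. Tpi1, the triose phosphate isomerase, was at 6.30, 6.23 and 6.27 in TCEP rats, against 6.14, 5.98 and 6.07 in vehicle rats, a difference of 0.20 (SE 0.07, adjusted p = 0.559). Gk, the glycerol kinase that brings glycerol into the path, was at 3.46, 3.53 and 3.49 in TCEP rats, against 3.31, 3.15 and 3.4 in vehicle rats, a difference of 0.21 (SE 0.08, adjusted p = 0.587). In both genes all TCEP values lay above all vehicle values, yet neither passed the adjusted threshold. Tpi1 has 3 detected probes, which gave differences from 0.07 to 0.20.

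In the list for fructose and sorbitol use, 4 of 10 tested genes had higher and 6 lower means (median -0.02). Glyctk, the glycerate kinase that handles a late product of fructose breakdown, was at 6.43, 6.43 and 6.48 in TCEP rats, against 6.21, 6.35 and 6.04 in vehicle rats. Its TCEP values were close together and above all vehicle values, with a difference of 0.25 (SE 0.09, unadjusted p = 0.0373, adjusted p = 0.577). Slc2a5, the apical fructose carrier, differed by -0.08 (SE 0.36). Slc2a5 and, below, Rhbg and Rhcg are named for their roles and were picked after their values were seen.

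Of 21 genes of glutamine breakdown and ammonia handling, 12 had higher and 9 lower means (median 0.06). Glul, the glutamine synthetase, which consumes ammonia and is abundant in the late proximal tubule of the rat, was at 5.39, 5.28 and 4.93 in TCEP rats, against 4.81, 5.01 and 4.61 in vehicle rats. TCEP replicates 1 and 2 lay above all vehicle values, and TCEP replicate 3 below vehicle replicate 2. The difference was 0.39 (SE 0.16, unadjusted p = 0.0478, adjusted p = 0.598), and 0.29 without TCEP replicate 1. A further Glul probe gave 0.27, and the mean over probes gave 0.33 (limma unadjusted p = 0.075). Within each group Glul had the order of the late proximal tubule list mean. That mean was 0.57, 0.13 and -0.25 in TCEP rats and -0.31, 0.36 and -0.50 in vehicle rats. The part of that tubule segment in the Glul values was not tested. Rhbg and Rhcg, the ammonia channels of the distal nephron and collecting duct, differed by -0.22 (SE 0.10) and -0.35 (SE 0.16), and neither had an unadjusted p under 0.05. Beside them, markers of intercalated cells, which carry these channels, had a list mean of -0.15 to -0.14 in TCEP rats. In vehicle rats it was 0.09 to 0.18, and 4 of 5 tested markers were lower in TCEP rats. Lower means were not particular to these cells. Of principal cell markers, 6 of 6 were lower in TCEP rats (median -0.23), with list means that overlapped between groups. Of the tested distal convoluted and connecting tubule markers, 4 of 4 were lower (median -0.38). Groups did not overlap for 4 of 5 intercalated, 0 of 6 principal cell and 2 of 4 distal tubule markers, beside 15.6% of all genes. With limma 4, 1 and 2 of them had an unadjusted p under 0.05, beside 8.33% of all genes, and 0 were called. The part of these cell types in the values of Rhbg and Rhcg was not tested.

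Among 19 genes of glycolysis and its control, 8 had higher and 11 lower means (median -0.004). Hk2, a hexokinase that is little expressed in the healthy proximal tubule, was dim, at -5.12, -4.86 and -5.02 in TCEP rats, against -4.33, -4.64 and -4.20 in vehicle rats. All TCEP values lay below all vehicle values, a difference of -0.61 (SE 0.14, unadjusted p = 0.00425, adjusted p = 0.533). Under normexp background correction it was -0.15.

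Of 19 tested genes for transcriptional and hormonal control, 10 had higher and 9 lower means (median 0.06). Ppargc1a, a coactivator that drives Pck1 and G6pc1 in the liver, was at -0.75, -0.73 and -0.69 in TCEP rats, against -0.51, -0.54 and -0.08 in vehicle rats, a difference of -0.35 (SE 0.14, adjusted p = 0.587). Without vehicle replicate 3 it was -0.20. Foxo1, a transcription factor restrained by insulin, was at -0.07, -0.17 and -0.14 in TCEP rats, against -0.03, 0.09 and 0.13 in vehicle rats, a difference of -0.19 (SE 0.07, adjusted p = 0.582). In both genes the groups did not overlap, and neither passed the adjusted threshold.

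The list for the acid-base response of the proximal tubule had 8 tested members, 4 with higher and 4 with lower means (median -0.006), and 0 with an unadjusted p under 0.05. The smallest p values belonged to Slc4a4, the basolateral bicarbonate carrier, at -0.24 (SE 0.14), and to Slc9a3, the apical sodium-proton exchanger, at 0.34 (SE 0.26). Single arrays moved both: Slc4a4 was at -0.13 without TCEP replicate 1 and at -0.35 without TCEP replicate 3 (limma unadjusted p = 0.0436). Slc9a3 was at 0.17 without vehicle replicate 1, at 0.20 without TCEP replicate 2, at 0.52 without TCEP replicate 3 and at 0.58 without vehicle replicate 3 (limma unadjusted p = 0.0385). The 3 detected probes of Slc9a3 disagreed in sign, from -0.07 to 0.34, and the mean over them was 0.08.

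**Figure D5:**
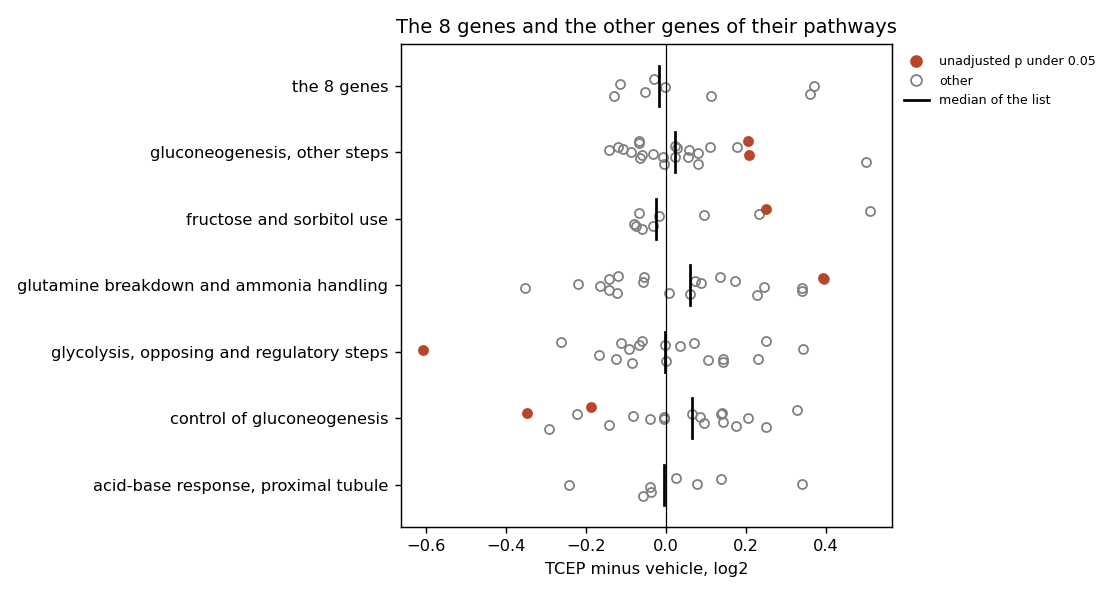
Difference of TCEP minus vehicle on the log2 scale (horizontal axis) for the 8 genes and for the tested genes of 6 pathway lists (rows), 1 point per gene, spread vertically for legibility. Filled points had an unadjusted p under 0.05 and the black bar is the median of a row. Each median lies between -0.02 and 0.06, and the filled points are Tpi1, Gk, Glyctk, Glul, Hk2, Ppargc1a and Foxo1.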

How the data were processed

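RNA of the renal cortex of 3 TCEP and 3 vehicle rats was measured on 1-colour Agilent arrays. The authors extracted the spots with Agilent Feature Extraction 10.7.1.1, per the file headers (10.7 per the submitters' processing notes). Its deposited processed signal, a linear intensity, had its background subtracted there, with no scaling from array to array. Other deposited values used were flags per spot. The deposited series matrix holds, as a ratio, the same signal divided by a constant per array (spread under 0.01% within an array, column medians 0.104 to 0.107); its direction and lack of gene centring were checked against the scanner files.

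Of 61657 non-control probes, 12 with an outlier flag were dropped, and 27460 (44.5%) were named through their accessions in a RefSeq table (assembly GRCr8, newer than the array's rat annotation), which also gave the promoters. The log2 signal minus the array's log2 75th percentile was used, with the probe of highest mean log2 signal standing for a gene. The 11804 genes detected on all 3 arrays of either group were compared in R 4.3.3 by limma 3.58.1 (two-sided, group as the sole term, 5.93 degrees of freedom), with Benjamini-Hochberg adjustment over all of them. The fit was checked on simulated data. Python 3.11.15 with pandas 2.3.3, numpy 2.4.6 and matplotlib 3.10.9 made tables and figures. The number of arrays limits the precision.

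The members and lists were chosen with earlier results of these data known. Named were all 8 members, each list's genes at an unadjusted p under 0.05 or else the 2 with the smallest p, and the 3 genes nearest to Pck1. The series' design text calls the 3 rats of a group biological replicates. Alternatives were quantile normalization, no scaling, normexp with an offset of 50 on median spot signals, keeping dim probes, requiring detection on all 6 arrays, averaging a gene's probes, each probe alone, the series matrix values, the replicate block, a variance trend, array weights and leaving out each array.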

Additional observations from a re-analysis of the deposited data

How the results depend on the processing

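Over all 16 alternatives 0 genes, and so 0 of the 8 members, passed the adjusted threshold. The count at an unadjusted p under 0.05 was 1568 with normexp on median spot signals, against 983, and 694 to 1004 when 1 array was left out. Of the members, 0 to 2 had such a p when 1 array was left out, the 2 (Slc38a3 and Gpt) without TCEP replicate 3. The members' median ran from -0.08 to 0.06 when 1 array was left out. Pck1, Pcx, Slc38a3 and Gpt kept their direction in every alternative run, from -0.21 to -0.03, -0.22 to -0.04, 0.07 to 0.83 and 0.13 to 0.53. The other 4 changed sign in at least 1 run. With further probes included, Glud1 did so in 9 of 18 runs, Fbp1 in 4 of 17, G6pc1 in 3 of 17 and Khk in 1 of 17. With array weights G6pc1 was at 0.079, Fbp1 at 0.00099 and Glud1 at 0.045. Without scaling Fbp1 was at 0.010 and Glud1 at 0.040. With normexp Fbp1 was at 0.096, Khk at -0.0057 and Glud1 at 0.023. With the mean over probes Glud1 was at 0.072, and its further probes gave 0.21 and 0.0048. When 1 array was left out, G6pc1 ran from -0.18 to 0.15, Fbp1 from -0.085 to 0.058, Glud1 from -0.078 to 0.070 and Khk from 0.04 to 0.16. The 9 pathway genes named by the rule kept their direction in all 144 values, none of which was called. They were picked by their p in these same arrays, so this is no separate support. Runs of each probe alone were not among these values, and a Slc9a3 probe gave -0.07. Deviations of same-numbered arrays correlated at -0.15, -0.10 and 0.23. These values did not show a pairing of animals by replicate number and cannot exclude one. With the replicate block 850 genes had an unadjusted p under 0.05. In this balanced layout the block cannot change a difference, so the p values alone moved. With limma the adjusted p was 0.844 for Pck1. For Slc38a3 the unadjusted p was 0.0897 (adjusted p = 0.728), against 0.444 without the block. The causes of these shifts were not tested.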
